A study of Mus musculus with 66 samples.

Results

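The 9 genes Dlg2, Dlg4, Shank1, Shank2, Shank3, Dlgap1, Dlgap2, Dlgap3 and Homer1 encode scaffold proteins of the postsynaptic density. They were chosen by gene symbol, all 9 were found among the 30084 symbols of the count table, and all 9 were among the 16145 genes with enough reads to test. Their mRNA was measured by sequencing of polyadenylated RNA from cultured neurons of wildtype mouse embryos (stage E16.5). The cultures received lentivirus with a short hairpin RNA (shRNA, an RNA processed in the cell into a guide against a matching mRNA) against Chd8, Ash1l, Med13l, Setd5, Dnmt3a, Kdm6b, Kmt2c, Tbr1 or Mbd5, a nontargeting shRNA, or no virus. Each of these 11 conditions had 3 male and 3 female libraries, which gave 22 groups and 66 libraries. All groups share the wildtype genotype, and doses were set to leave about 50% of each target. Virus was removed on culture day 6, and lysis followed on culture day 10. The 3 libraries of a group came from wells infected in triplicate, per the labels. The p-values rest on the spread between libraries within groups, estimated for each gene over all 22 groups together. This spread may be partly technical. The number of hairpins per target, their promoter and the number of embryos behind a library are not given in the sources used here.

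The postsynaptic density is a protein lattice under the membrane of excitatory synapses that holds glutamate receptors opposite the site of transmitter release. In its layers, the membrane-associated guanylate kinases Dlg4 and Dlg2 bind receptor tails, Dlgap proteins bind the guanylate kinase-like domain of the Dlg proteins, Shank proteins bind Dlgap proteins from below, and Homer1 links Shank proteins to metabotropic glutamate receptors. Variants of Shank3 and other members are known in autism and intellectual disability, as are variants of the shRNA targets. Among the targets, Chd8 is a chromatin remodeller, Dnmt3a a DNA methyltransferase, Ash1l and Kmt2c histone methyltransferases, Kdm6b a histone demethylase, Med13l a subunit of the Mediator kinase module and Tbr1 a transcription factor of cortical neurons. The comparisons address how much of each scaffold mRNA is left when a regulator is reduced, in either sex.

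Total counts over named genes ranged from 13634872 to 66074822 per library, and levels are given as CPM, counts relative to the scaled library size. Every one of the 18 knockdown groups had less of its own target than the nontargeting group of its sex, at 22.3% to 54.3% of that mean. The labels of a pair of male libraries disagreed with their target levels. That labelled Setd5 shRNA male 1 had Setd5 at 141 CPM and Kdm6b at 23.1 CPM, and that labelled Kdm6b shRNA male 1 had Setd5 at 44.9 CPM and Kdm6b at 39.9 CPM. The library labelled Setd5 shRNA female 1 had 612 counts of Ddx3y and 574 of Kdm5d, against at most 12 and 2 in the other female libraries and at least 1690 and 696 in males. It had 0 counts of Uty and 24 of Eif2s3y, further Y-linked genes with at least 515 and 1261 counts in males, and its 63232 counts of Xist were the most of all libraries. The member differences from nontargeting over both sexes after Setd5 and Kdm6b depletion that are described singly are given with and without the libraries concerned. Other values include these libraries unless stated. The labelled cell type was checked with markers. The 6 neuron markers were all present, with Map2 at a median of 1710 CPM, while of the 5 microglia markers C1qa and P2ry12 had medians of 0 CPM, Cx3cr1 of 0.0296, Csf1r of 0.409 and Aif1 of 1.1 CPM. Markers of astrocytes and radial glia were detected, the highest being Slc1a2, an astrocyte glutamate transporter, at a median of 215 CPM. Of the others, Fabp7 had a median of 166, Slc1a3 of 59.0, Aldh1l1 of 19.1, Aqp4 of 8.04, Gfap of 6.45 and Sox9 of 5.86 CPM.

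In GRCm38 (mm10) with GENCODE M21, all 9 genes lie on the plus strand and span from 30.6 kb for Dlg4 (chr11:70016942-70047522) to 1972.6 kb for Dlg2 (chr7:90476672-92449247). Shank3 lies at chr15:89499623-89560261, Shank2 at chr7:144001928-144424494, Shank1 at chr7:44310253-44360572 and Homer1 at chr13:93299635-93405129. Dlgap1 lies at chr17:69969073-70821413, Dlgap2 at chr8:14095865-14847680 and Dlgap3 at chr4:127169204-127237022. Shank1 overlaps 1 other protein-coding gene, 1700008O03Rik, and because the strand setting of the counting is not given in the sources used here, reads of the pair may not be fully separated. The same limit holds for overlapping genes that are not protein-coding, of which Dlg2 has 30, Dlgap2 4, Shank2 3, Dlgap1 2, Homer1 2 and Shank3 1. RefSeq promoters (250 bases before to 50 after a transcript start, build GRCm38.p6) were found for 6 of the 9 members. The promoters of Shank3 (chr15:89499358-89499657, plus strand) and of the first Dlgap1 start (chr17:69968823-69969122, plus strand) are shown because these are the members whose decrease passed the test over both sexes. Each is written 5′ to 3′ with every CG dinucleotide, a main but not the only site of DNA methylation in mammals, in capitals.
Shank3: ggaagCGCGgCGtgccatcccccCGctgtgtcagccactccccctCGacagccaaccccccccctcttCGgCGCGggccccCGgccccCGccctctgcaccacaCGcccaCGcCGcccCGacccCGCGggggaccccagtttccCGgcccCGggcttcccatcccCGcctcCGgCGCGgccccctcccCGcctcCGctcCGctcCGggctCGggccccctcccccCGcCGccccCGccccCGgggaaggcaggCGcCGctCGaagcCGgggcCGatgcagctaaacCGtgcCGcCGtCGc
Dlgap1: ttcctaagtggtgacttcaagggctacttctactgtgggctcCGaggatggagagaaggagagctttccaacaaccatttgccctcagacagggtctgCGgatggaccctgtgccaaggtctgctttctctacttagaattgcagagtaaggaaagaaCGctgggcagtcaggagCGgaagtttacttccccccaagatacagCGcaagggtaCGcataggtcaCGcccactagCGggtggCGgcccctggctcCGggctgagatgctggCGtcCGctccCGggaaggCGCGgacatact
The Shank3 sequence had a GC content of 81.0% and 40 CG dinucleotides, against 57.7% and 15 for Dlgap1, and medians of 52.7% and 7 over all 32851 promoters of this length, of which 10% had more than 31. The letters GGGCGG (a GC box, searched on both strands) occurred 4 times in the Shank3 window and not in the Dlgap1 window, and in 35.7% of all promoters. TGACGTCA, a cAMP response element, and GGTGTGA, a T-box core, were in neither window, and in 1.79% and 3.98% of all promoters. These are matches of letters in a window, not measured binding.

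Levels per kb of exon were compared in the 12 control libraries, which are the nontargeting and no virus libraries of both sexes. Dlg4, the main scaffold of the Dlg family at excitatory synapses, had 36.8 ± 3.25 CPM per kb (SD, n = 12), and Dlgap3 had 36.5 ± 6.33. Dlg2 followed with 25.02 ± 2.65, Shank1 with 22.4 ± 3.42 and Shank3 with 17.7 ± 3.62 CPM per kb. Shank2 had 10.9 ± 1.39, Dlgap1 9.16 ± 1.39, Homer1 8.60 ± 0.981 and Dlgap2 3.98 ± 1.09 CPM per kb. The ranges of neighbours in this order overlapped in 7 of 8 pairs. Only Homer1 and Dlgap2 did not overlap, with lowest and highest values of 7.16 and 5.58 CPM per kb. Within libraries, Shank1 was above Shank3 and Shank2 above Dlgap1 in 12 of 12, whereas Dlg4 was above Dlgap3 in 5 of 12. Exon length counts all annotated exons of a gene, so a gene whose long exons are not used in these cells has a level that is too low on this scale. The table counts genes, and isoforms such as the short activity-induced form of Homer1 are not separated.

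**Figure D1:**
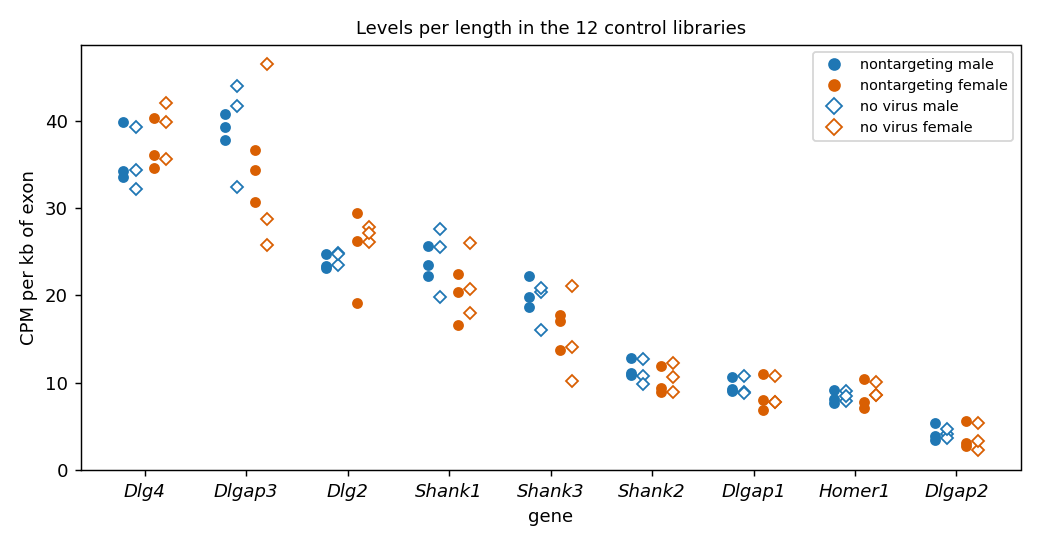
Level of each member per length (y axis, CPM per kb of exon) in the 12 control libraries, 1 point a library, with filled circles for nontargeting, open diamonds for no virus, blue for male and orange for female. Dlg4 and Dlgap3 share the top of the order, and Dlgap2, at 2.35 to 5.58 CPM per kb, lies below all other members.

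Few member values differed from the control beyond the spread between libraries. Over the 18 comparisons of an shRNA with the nontargeting shRNA of the same sex, 2 of the 162 member values passed an adjusted p of 0.05 and were lower (edgeR quasi-likelihood test, Benjamini-Hochberg over all genes tested), and 0 were higher. Of all genes tested in these comparisons 1.55% were called lower and 0.929% higher. Without adjustment, 12 member values had p under 0.05, 6 in each direction, against 9.64% of all genes, and DESeq2 called 2 lower and 1 higher. With the sexes averaged, 2 of 81 values were lower and 1 was higher, against 3.95% and 3.04% of all genes, and DESeq2 called 3 and 2. The counts rose when the replicate number was a block in the model, to 6 lower and 4 higher by sex, where 4.19% and 3.21% of all genes were called, and to 8 and 9 over both sexes, where 8.33% and 7.18% were. The block gives each replicate number within a sex an effect that all groups share. A pairing check asked whether each same-numbered knockdown and nontargeting pair correlated over 0.1 in deviations from the group mean. Its cut-off was applied to these same data and libraries of different numbers were not correlated, so passing alone does not show that numbers pair libraries. The blocked counts include comparisons that did not pass the check, whose calls are given in the last paragraph. The shares of members called lie near those of all genes. Log2 differences by sex ran from −0.90 to 0.60 over all members and targets.

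**Figure D2:**
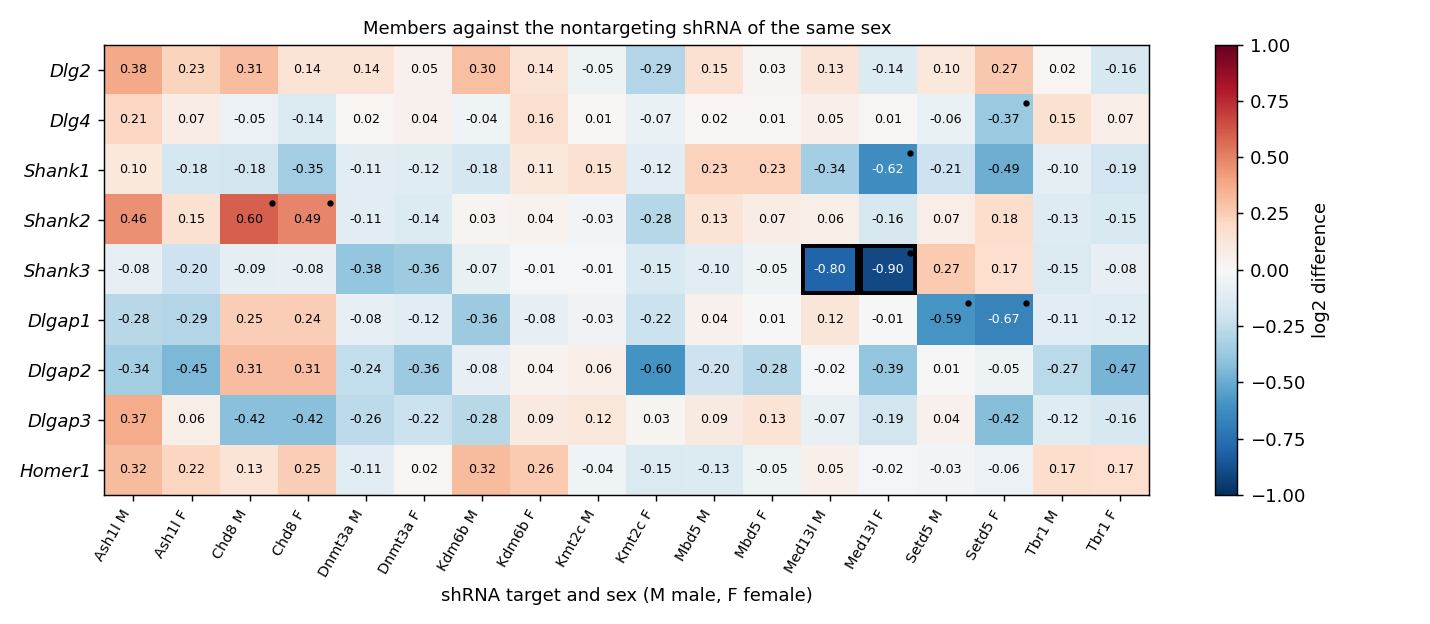
Log2 difference of each member (rows) from the nontargeting shRNA of the same sex for the 9 targets in males (M) and females (F) (columns), with blue for lower and red for higher. Boxes mark the 2 values called by the edgeR test, Shank3 after Med13l depletion at −0.80 and −0.90. Dots mark values called with the replicate block where the libraries passed the pairing check.

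Shank3, a lower-layer scaffold whose human gene is lost in Phelan-McDermid syndrome, fell after Med13l depletion in both sexes. In males the nontargeting libraries had 172, 182 and 204 CPM and the Med13l shRNA libraries 109.8, 109 and 101 CPM. The means were 186 ± 16.53 and 107 ± 4.85 CPM (SD, n = 3 each), and no virus males had 188, 147 and 192 CPM. All 3 male Med13l libraries were below all 6 male control libraries. In females the nontargeting libraries had 126, 163 and 157 CPM and the Med13l shRNA libraries 49.5, 115 and 73.8 CPM, with means of 149 ± 19.8 and 79.6 ± 33.3 CPM. No virus females had 93.4, 194 and 129 CPM, so the female Med13l library with 115 CPM was below every nontargeting library and above 1 no virus library. The log2 difference was −0.80 in males (SE 0.25, edgeR adjusted p = 0.0319) and −0.90 in females (SE 0.25, edgeR adjusted p = 0.0113). Over both sexes it was −0.85 (SE 0.17, edgeR adjusted p = 0.000203), where 12.3% of all genes were called lower.

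The decrease over both sexes was called in all 66 fits that left out 1 library, with values from −1.03 to −0.72. The male call was lost without any 1 of the 6 libraries compared (edgeR adjusted p from 0.058 to 0.128) and against no virus (0.0571). The female call was lost without Med13l female 1 (−0.64, edgeR adjusted p = 0.207), Med13l female 3 (0.0592) or nontargeting female 2 (0.0646), and in fits of females alone (0.1) or of the libraries compared alone (0.295). Marker levels differed in the same libraries. The 6 neuron markers summed to 3621 to 4645 CPM in Med13l females against 5099 to 5680 in nontargeting females, and to 4387 to 4647 against 5487 to 5503 CPM in males. Of these 6 markers only Syt1, a synaptic vesicle calcium sensor with a median of 1080 CPM over all libraries, was called over both sexes, at −2.34 (edgeR adjusted p = 3.66e-13), and the median of the 6 was −0.09. The 7 astrocyte and radial glia markers summed to 369 to 446 CPM against 544 to 688 in females and to 352 to 474 against 454 to 498 CPM in males, with 1 called lower. The 5 GABAergic markers summed to 700.2 to 1311 CPM against 1025 to 1445 in females and to 876 to 1174 against 1287 to 1564 CPM in males, with 2 called lower, and the 5 glutamatergic markers to 614 to 951 against 549 to 639.8 and to 547 to 827 against 519 to 542 CPM, with 1 called higher. The part of these markers in the Shank3 decrease was not tested, and in bulk RNA fewer cells of a type and less RNA per cell cannot be told apart.

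In the other knockdowns Shank3 stayed closer to its control. After Dnmt3a depletion it had 136, 131 and 160.3 CPM in males, all below the lowest nontargeting male, and 76.0, 155 and 117 CPM in females, where 2 of 3 were below. The value over both sexes was −0.37 (SE 0.17, edgeR adjusted p = 0.457). The Dnmt3a libraries passed the pairing check, and with the block the difference was −0.40 and passed (edgeR adjusted p = 0.00258). In the Dnmt3a libraries Gfap, an astrocyte filament gene, was called higher (2.14, edgeR adjusted p = 0.017) and Gad2, a GABA synthesis enzyme, lower (−0.57, edgeR adjusted p = 0.0314). The astrocyte and radial glia markers summed to 541 to 602 CPM in Dnmt3a males against 454 to 498 in nontargeting males, and to 464 to 1300.0 against 544 to 688 CPM in females. The part of these markers in the Shank3 value was not tested. After Setd5 depletion Shank3 had 192, 202 and 277 CPM in males and 115, 221 and 165 CPM in females, a difference of 0.22 over both sexes that did not pass (edgeR adjusted p = 0.563). It was 0.27 without the libraries labelled Setd5 and Kdm6b shRNA male 1 (edgeR adjusted p = 0.462) and 0.32 without Setd5 female 1 (edgeR adjusted p = 0.456).

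**Figure D3:**
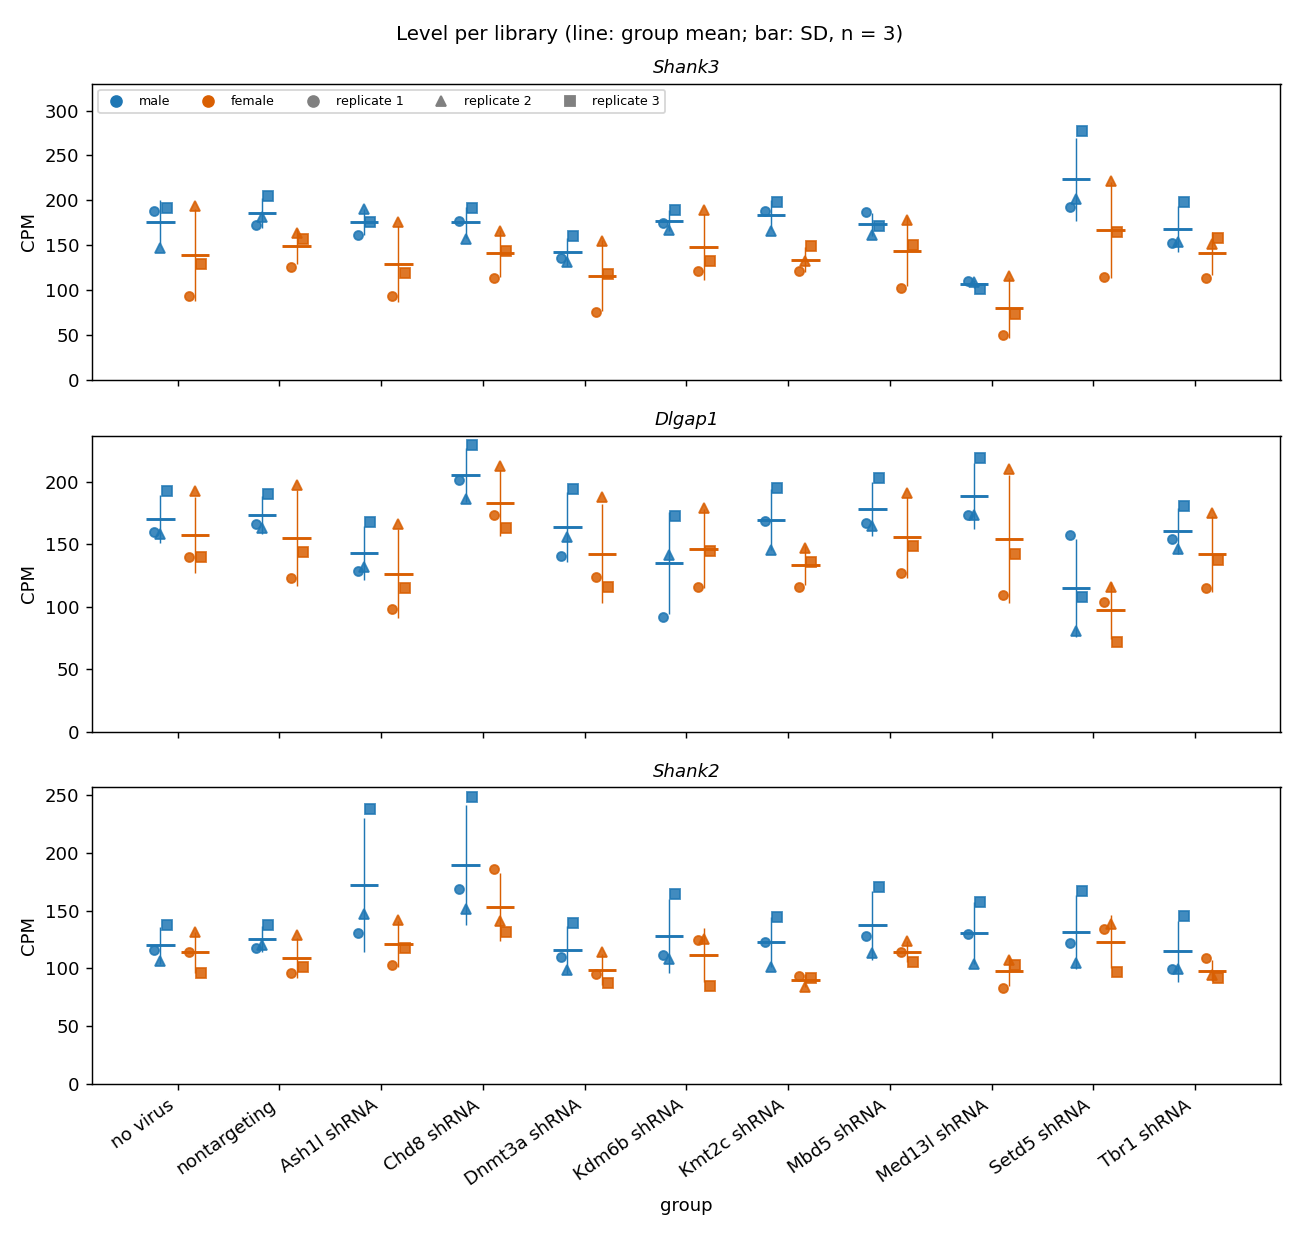
Level (y axis, CPM) of Shank3, Dlgap1 and Shank2 in each of the 66 libraries by group (x axis), with males in blue, females in orange, a symbol for each replicate number, a line for the group mean and a bar for the SD (n = 3). Among the groups of each sex, Shank3 was lowest in the Med13l group (means 107 CPM in males and 79.6 in females), Dlgap1 in the Setd5 group (115 and 97.2 CPM), and Shank2 was highest in the Chd8 group (190 and 153 CPM).

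Shank2, another scaffold of the lower layer, rose after Chd8 depletion when both sexes were averaged. The nontargeting males had 118, 120.1 and 138 CPM and the Chd8 shRNA males 169, 152 and 249 CPM. In females the nontargeting libraries had 96.0, 129 and 101 CPM and the Chd8 libraries 186, 141 and 131 CPM. In both sexes all 3 Chd8 libraries were above all 3 nontargeting libraries. All 3 Chd8 males were also above the no virus males, of which the highest had 137.6 CPM. The lowest Chd8 female, at 131.2 CPM, was below the highest no virus female, at 131.6 CPM. The difference from nontargeting was 0.54 over both sexes (SE 0.15, edgeR adjusted p = 0.00634), in a comparison where 9.85% of all genes were called higher. It was 0.60 in males (edgeR adjusted p = 0.0685) and 0.49 in females (edgeR adjusted p = 0.166), and did not pass in either sex alone. These libraries passed the pairing check in both sexes (r 0.159, 0.123 and 0.136 in males and 0.465, 0.561 and 0.329 in females). With the block both values passed (0.56, edgeR adjusted p = 0.000475, and 0.49, edgeR adjusted p = 0.00238). Without Chd8 male 3, the library at 249 CPM, the difference over both sexes was 0.43 (edgeR adjusted p = 0.0502). Shank2 was also above nontargeting after Ash1l depletion, at 0.30 over both sexes (edgeR adjusted p = 0.287) and 0.46 in males (edgeR adjusted p = 0.392), and did not pass. In Chd8 groups the neuron markers summed to 4743 to 5055 CPM in females, against 5099 to 5680 in nontargeting females. In males they summed to 4931 to 5520 against 5487 to 5503 CPM. Map2 and Syt1 were called lower and Tubb3 higher. The astrocyte and radial glia markers summed to 327 to 980 CPM in females and 427 to 811 in males, a range wider than in the nontargeting groups. Of these 7 markers 2 were called lower, as were 2 of 5 GABAergic and 2 of 5 glutamatergic markers. Over all 9 comparisons of this kind 3.95% of all genes were called lower, and the share after Chd8 depletion alone is not given here. The part of these markers in the Shank2 value was not tested.

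Shank1, which shares the Shank domain order and is found mainly in brain, had no call against nontargeting in the edgeR fit without the block. Its lowest levels were in Med13l females, with 95.8, 177 and 133 CPM against 175, 237 and 215 CPM in nontargeting females, where 2 of 3 libraries were below all controls. Med13l males had 203, 176 and 213 CPM against 247, 233 and 270.0 CPM, and did not overlap with them. The difference over both sexes was −0.48 (SE 0.19, edgeR adjusted p = 0.0529). The female value was −0.62 (edgeR adjusted p = 0.127). With the block it was −0.65 (edgeR adjusted p = 0.0134), and the Med13l females passed the pairing check.

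Among the Dlgap genes, whose proteins bridge the Dlg and Shank layers, Dlgap1 fell after Setd5 depletion over both sexes. The nontargeting males had 167, 163 and 191 CPM and the libraries labelled Setd5 shRNA male 158, 80.6 and 108 CPM. In females the nontargeting libraries had 123, 197 and 144 CPM and the Setd5 libraries 104, 116 and 71.9 CPM. All 6 Setd5 libraries were below all 3 nontargeting libraries of their sex. The difference over both sexes was −0.63 (SE 0.17, edgeR adjusted p = 0.0155), where 3.46% of all genes were called lower. The values of −0.59 in males (edgeR adjusted p = 0.668) and −0.67 in females (edgeR adjusted p = 0.113) did not pass alone. Both passed with the block (−0.58, edgeR adjusted p = 0.0259, and −0.64, edgeR adjusted p = 0.00185), and these libraries passed the pairing check.

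The highest male value, 158 CPM, belonged to the library labelled Setd5 shRNA male 1, one of those whose Setd5 and Kdm6b levels went against the labels. The library labelled Kdm6b shRNA male 1 had Dlgap1 at 91.7 CPM, against 141 and 172 CPM in the other Kdm6b males. Without these 2 libraries, the difference after Setd5 depletion was −0.88 in males (edgeR adjusted p = 0.0711) and −0.77 over both sexes (edgeR adjusted p = 0.00133). Without Setd5 female 1 alone, it was −0.65 over both sexes (edgeR adjusted p = 0.0329) and −0.73 in females (edgeR adjusted p = 0.31). With the block, the male value without the 2 libraries was −0.93 (edgeR adjusted p = 6.6e-08) and the female value without Setd5 female 1 was −0.86 (edgeR adjusted p = 0.0011). The call was lost without Setd5 female 3 (edgeR adjusted p = 0.0645), nontargeting female 2 (0.0698), Setd5 male 2 (0.0801) or Setd5 male 3 (0.0513). Neuron markers summed to 4521 to 5537 CPM in Setd5 females and 5079 to 5715 CPM in males, which overlapped the nontargeting ranges, and none of the 6 was called. The GABAergic markers summed to 944 to 1354 CPM in Setd5 females and 1226 to 1611 CPM in males, with 1 of 5 called lower, and their part in the Dlgap1 value was not tested.

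Dlgap2 was the least abundant member, at a median of 21.9 CPM over the 66 libraries. It had no call against nontargeting in the edgeR fit without the block. Its differences over both sexes were below 0 for 8 of 9 targets, from −0.39 after Ash1l depletion to 0.31 after Chd8 depletion. These differences share the same nontargeting libraries, so their signs are not independent. The spread between libraries was large: the nontargeting females had 16.7, 34.3 and 19.4 CPM, and the Kmt2c females, with the lowest single-sex value of −0.60, had 15.2, 13.1 and 18.5 CPM. Dlgap3, known for obsessive grooming in mice that lack it, had 134, 125 and 139 CPM in Chd8 males against 177, 171 and 184 CPM in nontargeting males, with no overlap. In Chd8 females it had 79.1, 151 and 113 CPM against 139, 166 and 155 CPM, with overlap. The difference over both sexes was −0.42 (SE 0.19, edgeR adjusted p = 0.105).

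In Chd8 depletion, whose libraries passed the pairing check in both sexes, 5 more members passed over both sexes with the block. Dlg2 was 0.23 (edgeR adjusted p = 0.023), Dlgap1 0.26 (0.0405), Dlgap2 0.36 (0.0325) and Homer1 0.20 (0.0399) higher on the log2 scale, and Dlgap3 was at −0.44 (0.0055). Of all genes in that blocked comparison, 36.9% were called in either direction.

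Of the Dlg genes, Dlg4 varied least by target, with differences over both sexes from −0.22 to 0.14. Its lowest group mean was in Setd5 females, with 330.3, 457 and 352 CPM against 458, 535 and 478 CPM in nontargeting females, each below all 3 controls. That value was −0.37 (SE 0.15, edgeR adjusted p = 0.197). With the block it was −0.38 (edgeR adjusted p = 0.00849), and −0.22 over both sexes (0.0261), and these libraries passed the pairing check. Both blocked calls were lost without Setd5 female 1, at −0.34 in females (edgeR adjusted p = 0.0968) and −0.20 over both sexes (edgeR adjusted p = 0.0994). Without the libraries labelled Setd5 and Kdm6b shRNA male 1, the blocked values were −0.38 (edgeR adjusted p = 0.000247) and −0.28 (edgeR adjusted p = 0.000256). Setd5 males overlapped their controls, at 502, 384 and 479 CPM against 445, 454 and 528 CPM. The lowest Dlg4 level of all 66 libraries, 315 CPM, belonged to the library labelled Kdm6b shRNA male 1. Dlg2, whose protein also clusters receptors and potassium channels, was above its control in 14 of 18 single-sex comparisons. None was called in the edgeR fit without the block. The comparisons of a sex share their nontargeting libraries, so these signs are not independent. Against no virus, nontargeting Dlg2 was at −0.04 in males and −0.12 in females on the log2 scale. In Ash1l males it had 449, 462 and 601 CPM against 377, 381 and 402 CPM in nontargeting males, with no overlap, a value of 0.38 (SE 0.14, edgeR adjusted p = 0.221).

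Homer1, the adaptor to metabotropic receptors, had differences over both sexes from −0.10 to 0.29 and no call in the edgeR fit without the block. It did not overlap with nontargeting males, at 110.1, 91.9 and 98.1 CPM, in Ash1l males (138, 119.5 and 117 CPM) or in Kdm6b males (135, 112 and 127 CPM), the first of which is a library in doubt. The values over both sexes were 0.27 after Ash1l depletion (edgeR adjusted p = 0.175) and 0.29 after Kdm6b depletion (edgeR adjusted p = 0.259). The latter was 0.26 without the libraries labelled Setd5 and Kdm6b shRNA male 1 (edgeR adjusted p = 0.393).

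Whether a member responded to 1 target differently from the others was tested as each shRNA against the mean of the other 8 with the sexes averaged. The nontargeting libraries do not enter these differences, but as part of the fit of all 66 libraries they enter the estimate of the spread. Of 81 values 6 were lower and 5 higher, against 6.96% and 7.96% of all genes, and DESeq2 called 6 and 6. Shank3 after Med13l depletion was at −0.77 (SE 0.14, edgeR adjusted p = 1.76e-05), Shank2 after Chd8 depletion at 0.53 (SE 0.11, edgeR adjusted p = 9.42e-05) and Dlgap1 after Setd5 depletion at −0.56 (SE 0.13, edgeR adjusted p = 0.00202). Against the other knockdowns the Dlgap genes split after Chd8 depletion, with Dlgap1 at 0.42 (edgeR adjusted p = 0.00481), Dlgap2 at 0.54 (edgeR adjusted p = 0.0073) and Dlgap3 at −0.37 (edgeR adjusted p = 0.0421). Against nontargeting they were at 0.25 (edgeR adjusted p = 0.324), 0.31 (edgeR adjusted p = 0.366) and −0.42 (edgeR adjusted p = 0.105), and none was called without the block. All of these values against the other knockdowns except Dlgap3 were called in each of the 66 fits that left out 1 library. Dlgap3 was lost in 16 of them (edgeR adjusted p up to 0.23, without Chd8 female 1), among them those without nontargeting female 3 (0.0501) or male 1 (0.0503).

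The other 5 of these calls each depended on a few libraries of their own knockdown. Shank3 after Setd5 depletion was at 0.44 (edgeR adjusted p = 0.0131) and lost its call without Setd5 female 2 or male 3 (0.115 each), and Dlg4 after Setd5 depletion was at −0.25 (edgeR adjusted p = 0.0362) and lost it without Setd5 female 1, female 3, male 2 or male 3 (0.183, 0.104, 0.169 and 0.0637). Without the libraries labelled Setd5 and Kdm6b shRNA male 1 these values were 0.48 (edgeR adjusted p = 0.0119) and −0.30 (edgeR adjusted p = 0.00961). Shank1 after Med13l depletion was at −0.40 (edgeR adjusted p = 0.029), lost without Med13l female 1 or 3 or male 1 or 2 (0.19, 0.0741, 0.0611 and 0.0978). Dlg2 was at 0.23 after Ash1l depletion (edgeR adjusted p = 0.0242), lost without Ash1l female 2 or 3 or male 3 (0.0952, 0.0808 and 0.226). It was at −0.30 after Kmt2c depletion (edgeR adjusted p = 0.0113), lost without Kmt2c female 1 or male 2 (0.0802 and 0.069). After Dnmt3a, Kdm6b, Mbd5 and Tbr1 depletion no member was called in this comparison without the block. With the replicate block 13 values were lower and 14 higher, where 12.8% and 15.3% of all genes were called. These included Shank2 (−0.22) and Shank3 (−0.24) after Dnmt3a depletion, Homer1 (0.24) after Kdm6b depletion, Shank1 (0.42) and Homer1 (−0.18) after Mbd5 depletion, and Dlg2 (−0.18) and Shank2 (−0.23) after Tbr1 depletion. The check of whether numbers pair libraries was made for each knockdown with nontargeting, not between knockdowns.

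**Figure D4:**
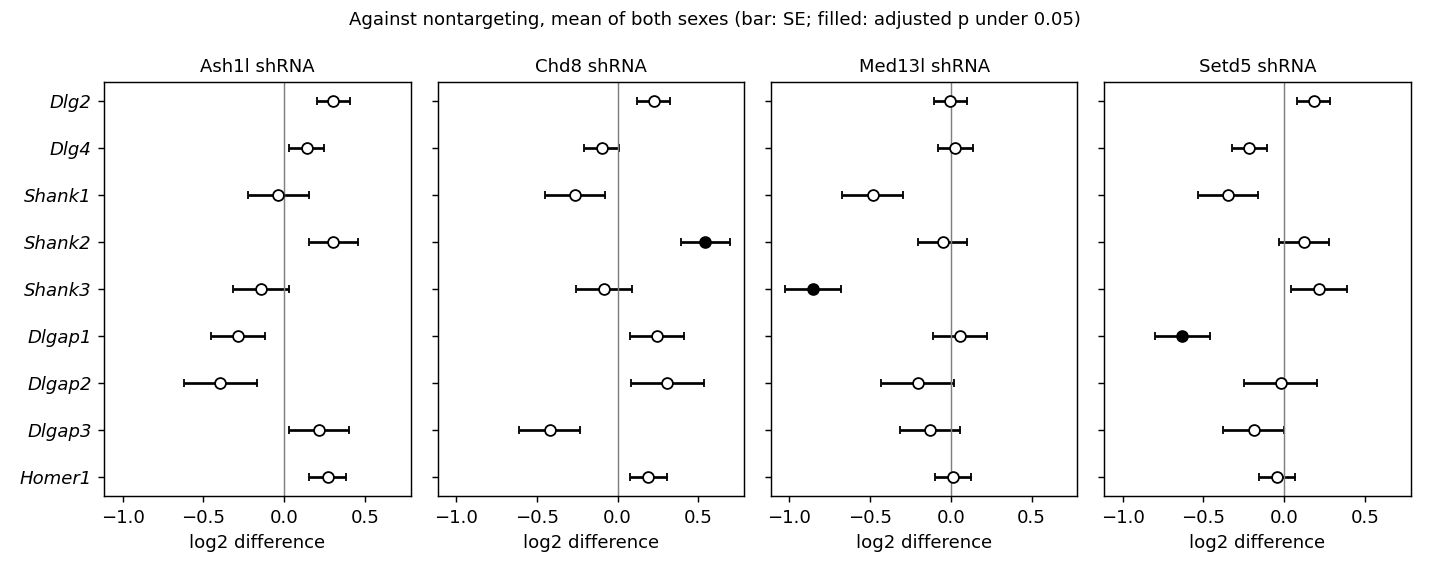
Log2 difference from nontargeting (x axis), mean of the male and the female difference, for each member (rows) after Ash1l, Chd8, Med13l and Setd5 depletion, with the SE as a bar. Filled points passed an edgeR adjusted p of 0.05, which were Shank2 after Chd8 depletion at 0.54, Shank3 after Med13l depletion at −0.85 and Dlgap1 after Setd5 depletion at −0.63.

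Within a knockdown, member differences pointed in both directions. After Med13l depletion 6 of 9 differences over both sexes were below 0, with a median of −0.05 against −0.01 over all genes, and after Chd8 depletion 4 of 9 were below 0, with a median of 0.19 against 0.00. After Setd5 depletion 6 of 9 were below 0, with a median of −0.04 against −0.01. The distance from the lowest to the highest member was 0.96 on the log2 scale after Chd8 depletion, 0.91 after Med13l depletion, 0.84 after Setd5 depletion and 0.34 after Kmt2c depletion. Shank3 and Dlgap2 were below 0 for 8 of 9 targets, and Shank3 had the same sign in both sexes for 9 of 9. The same nontargeting libraries enter all 9 differences, so these signs are not independent. Against no virus, nontargeting Shank3 was at 0.08 in males and 0.10 in females on the log2 scale, and Dlgap2 at 0.04 and 0.06.

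No difference between the sexes in the response of a member passed the test. The male minus female difference of effects was called for 0 of 81 values (edgeR), 0 had an unadjusted p under 0.05 and DESeq2 called 0, where 0.00206% of all genes were called. The largest of these was Dlgap2 after Kmt2c depletion, at 0.66 (SE 0.45). This SE is larger than most knockdown effects of Dlgap2, so differences of that size between the sexes were not detectable here. Males and females of the control groups also had no call among 18 values (0 with unadjusted p under 0.05, 0 by DESeq2, 0.0434% of all genes called). Shank3 had the largest difference, 0.34 higher in no virus males (SE 0.24, edgeR adjusted p = 0.995) and 0.32 higher in nontargeting males (SE 0.24, edgeR adjusted p = 1). The nontargeting virus itself was compared with no virus in each sex, and 0 of 18 member values were called (0 with unadjusted p under 0.05, 0 by DESeq2, 0% of all genes called), with differences from −0.12 to 0.10.

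Within groups, members followed the replicate number. Among the 11 female groups, replicate 2 had the highest level of Dlgap1, Dlgap3 and Homer1 in 11 of 11, and replicate 1 the lowest Shank3 in 11 of 11. Among the 11 male groups, replicate 3 had the highest Shank2 in 11 of 11 and the highest Dlg4 and Dlgap1 in 10 of 11. The median deviation from the group mean was 0.59 on the log2 scale for Dlgap2 in female replicate 2, 0.45 for Dlgap3 in the same libraries and −0.42 for Shank3 in female replicate 1. These deviations are as large as many of the differences between groups. What the number stands for is not given in the sources used here, and it was used as a block only as described above.

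**Figure D5:**
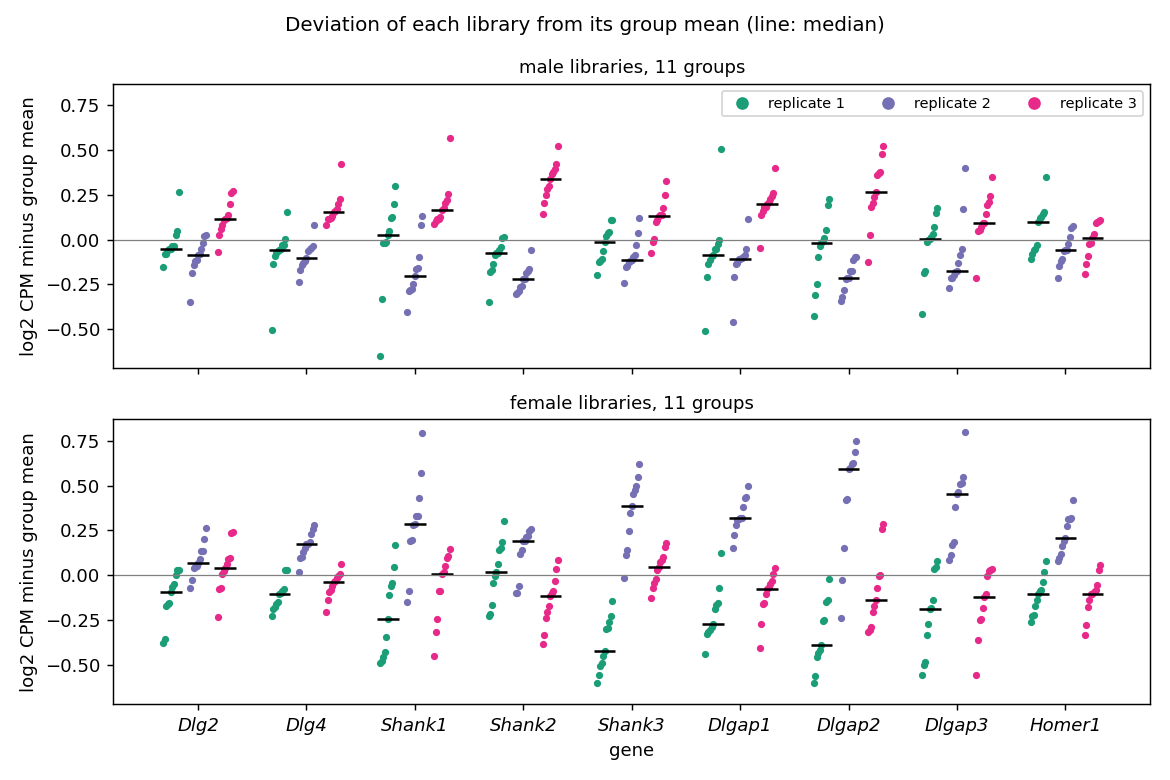
Deviation of each library from its group mean (y axis, log2 CPM) for each member (x axis) by replicate number (colour), in the 11 male groups (top) and the 11 female groups (bottom), with the median as a line. Female replicate 2 lies above 0 and replicate 1 below 0 for most members, with medians of 0.39 and −0.42 for Shank3, and male replicate 3 lies above 0 for Shank2 in all 11 groups.

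The other genes of the pathway were examined over both sexes, where 3.95% of all genes were called lower and 3.04% higher. Of 6 scaffold paralogues, tested in 54 values, 3 values were lower and 4 higher. The largest changes were decreases of Dlg5, a Dlg family scaffold of cell junctions, after Chd8 depletion (−0.89, edgeR adjusted p = 6.52e-08) and of Homer2 after Med13l depletion (−0.86, edgeR adjusted p = 2.8e-06). Dlg3, a further receptor-binding Dlg protein, rose after Chd8 (0.25, edgeR adjusted p = 0.0243) and Med13l depletion (0.24, edgeR adjusted p = 0.0365), Dlgap4 rose after Chd8 depletion (0.42, edgeR adjusted p = 0.00478), and Homer3 rose after Ash1l depletion (0.51, edgeR adjusted p = 0.0322) and fell after Med13l depletion (−0.42, edgeR adjusted p = 0.0404). Of 16 signalling and adaptor proteins of the density, 8 of 144 values were lower and 4 higher. Dynll2, a dynein light chain that binds Dlgap proteins, fell after Setd5 (−0.75, edgeR adjusted p = 0.000752) and Med13l depletion (−0.41, edgeR adjusted p = 0.0331), and Sipa1l1, which binds Dlg4, fell after Ash1l (−0.85, edgeR adjusted p = 3.17e-05) and rose after Chd8 depletion (0.54, edgeR adjusted p = 0.00371). Cttn, an actin-binding protein that Shank proteins bind, fell after Dnmt3a (−0.34, edgeR adjusted p = 0.00219) and rose after Med13l depletion (0.19, edgeR adjusted p = 0.0358).

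Among the 14 receptors and adhesion proteins that the scaffolds bind, 11 of 126 values were lower and 0 higher. After Med13l depletion 6 of the 14 fell, with a list median of −0.41 against −0.01 over all genes, in the comparison where 12.3% of all genes were called lower. Cacng2 (stargazin), an auxiliary AMPA receptor subunit that Dlg4 anchors, fell after Ash1l (−0.85, edgeR adjusted p = 8.52e-05) and Med13l depletion (−0.62, edgeR adjusted p = 0.00177). Nlgn3, a neuroligin that binds Dlg4, fell after Ash1l (−0.54, edgeR adjusted p = 0.00326) and Chd8 depletion (−0.48, edgeR adjusted p = 0.00305), and Gria2, an AMPA receptor subunit, fell after Chd8 depletion (−0.32, edgeR adjusted p = 0.0393). In the Ash1l libraries the GABAergic markers summed to 536 to 794.5 CPM in females against 1025 to 1445 in nontargeting females, and to 652 to 804 against 1287 to 1564 CPM in males. Gad1 (−1.28), Slc32a1 (−1.23) and Gad2 (−0.47) were called lower, and Slc17a6, a glutamatergic marker, was called higher (0.95). The part of these markers in the differences after Ash1l depletion was not tested.

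For synapse genes outside the density, 5 of 54 values of inhibitory postsynaptic scaffold genes were lower and 1 higher, and 7 of 90 values of presynaptic active zone genes were lower and 0 higher, against the same 3.95% and 3.04% of all genes. Erc2, an active zone scaffold, was called lower in 3 knockdowns, those of Ash1l, Chd8 and Med13l. Of 10 activity-regulated genes, 1 of 90 values was called, higher Arc after Chd8 depletion.

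The genes whose group means followed a member most closely were taken over the 22 groups, as a description. Shank3 was most like Strip2 and Map1a (Pearson r 0.92 each), Shank1 most like Cc2d1a (0.93) and Iqsec1 (0.92), and Shank2 most like Mtr (0.92) and D430041D05Rik (0.89). Dlgap1 was most like Rab11fip4 and Rsph3b (0.87 each), Dlgap2 most like Cmip and Arhgef11 (0.88 each) and Dlgap3 most like Cbarp (0.91) and Ehmt2 (0.90). Dlg2 was most like Klf8 (0.89) and Nsmaf (0.87), Dlg4 most like Gskip (0.81) and G6pdx (0.80), and Homer1 most like Wdr26 (0.82) and Lrp12 (0.78). Among the members themselves, 27 of 36 pairs had r above 0, with a median of 0.292. Shank1 and Dlgap3 had the highest r, 0.796, then Shank2 and Dlgap2 with 0.712, and Dlg4 and Dlgap2 had the lowest, −0.32. Each of the 22 groups holds every replicate number, but what a number stands for is not given in the sources used here. The part of the replicate pattern in these correlations was not tested. Sex differs between the groups and was not removed.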

How the data were processed

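Polyadenylated RNA of 66 libraries was sequenced with a stranded kit, per the labels' protocols. The authors deposited a single table of counts by gene, in whole numbers and not normalized. Per the submitters' processing notes the tools were STAR and featureCounts and the build mm10, and versions, annotation and strand setting are not given in the sources used here. Rows without a symbol (18483 of 48716, 0.69% to 1.41% of counts) were left out, 149 repeated rows were summed, and 6 of 72 library columns were not used. The control columns are named for luciferase and were matched to the nontargeting samples, the one control hairpin of the labels. Low counts were mostly even (29.5% of values from 1 to 20 odd, 49.1% of values of at least 1000).

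Counts were tested in R 4.3.3 with edgeR 4.0.16, which kept 16145 genes with filterByExpr, scaled by TMM (factors 0.874 to 1.06), used 1 mean per group over all 66 libraries and adjusted p by Benjamini-Hochberg over all genes of a comparison, with a threshold of 0.05. Log2 CPM had a prior count of 2. DESeq2 1.42.0 and other settings were alternatives, of which the block without the libraries in doubt was chosen after seeing the data. Replicate numbers were taken to pair libraries where each same-numbered pair correlated over 0.1 in its deviations from the group mean. This held in 8 of 9 female and 6 of 9 male comparisons, the exceptions being the Kdm6b comparisons and, in males, those of Ash1l and Med13l. All r ran from 0.036 to 0.655 in females and from −0.108 to 0.246 in males. The cut-off was applied to these same data, and libraries of different numbers were not correlated for comparison. In the fit of all 66 libraries the effects of the block are estimated over all groups, not only those compared. A comparison over both sexes counted as paired only where both sexes did. Named genes are the 9 members, up to 3 genes per list with most calls, and the 2 genes most like each member. Dlg5, Homer2 and single marker genes were named after their values were seen. Members, lists and rules were chosen with earlier results of these data known. Read counts from PCR-amplified libraries are not independent molecules, so errors rest on replicates.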

Additional observations from a re-analysis of the deposited data

How the results depend on the processing

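Of 1479 values of the named member differences under other settings, 0 changed sign, 1415 kept their side of the threshold, 51 lost it and 13 gained it. Calls lower by sex were 2 in the reported fit, 6 with the replicate block, 1 with each sex fitted separately, 11 with only the libraries compared and the block, and 1 against no virus, and from 1 (without 1 of 9 Med13l or nontargeting libraries) to 5 (without Setd5 female 2) when 1 library was left out. Calls higher by sex were 0, then 4 with the block, 1 with only the libraries compared, 3 with these and the block, 1 against no virus, 1 with DESeq2 and 0 to 1 without 1 library (1 without Chd8 male 2). Over both sexes calls lower were 2, then 8 with the block and 1 to 4 without 1 library (4 without Setd5 female 2), and calls higher 1, then 9 with the block, 2 with DESeq2 and 0 to 3 without 1 library (3 without nontargeting female 2, 2 without Med13l female 1 or Ash1l male 1, 0 without Chd8 male 3). Calls against the other knockdowns were 11, then 27 with the block and 9 to 15 without 1 library. Without a filter on low counts Dlg2 after Ash1l, Dlgap3 after Chd8 and Dlg4 after Setd5 depletion lost that call. Calls of sex differences of effects and of virus were 0 in every setting, and those between the sexes too, except that the block, nested in sex, gives no value there. All genes called by sex numbered 7200, then 21506 with the block, 23785 with only the libraries compared and the block, and 5806 to 8861 without 1 library. The causes were not tested.

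The block also called members where libraries did not pass the pairing check. Over both sexes after Ash1l depletion these were Dlg2 (0.30), Shank2 (0.28), Homer1 (0.28), Dlgap1 (−0.29) and Dlgap2 (−0.38). Homer1 was called after Kdm6b depletion (0.29, and 0.27 without the libraries labelled Setd5 and Kdm6b shRNA male 1). Shank1 (−0.50) and Shank3 (−0.88) were called after Med13l depletion. By sex, Dlg2 (0.37) and Shank2 (0.42) were called in Ash1l males and Shank3 (−0.80) in Med13l males. With 3 libraries a group the SE by sex was 0.14 to 0.32 on the log2 scale. Differences well above the SE also did not pass, such as Dlgap1 in Setd5 females at −0.67 (SE 0.24, edgeR adjusted p = 0.113), so differences of such a size may be missed.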
